A study of Mus musculus with 8 samples.

Results

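Glycolysis, the pentose phosphate pathway and the response to low oxygen were followed through 42 genes in a line of mouse alveolar macrophages called MH-S. The genes were taken by symbol from a list of enzymes, transporters, oxygen sensors and hypoxia targets, and no value enters the rule, but the list was drawn up with earlier results of these data known. All 42 were among the 17518 genes listed and among the 11911 that had enough counts to be tested. They fell into 7 roles: glucose entry and hexokinases (4 genes), upper glycolysis (9), lower glycolysis (5), the fate of pyruvate (5), the pentose phosphate pathway (4), oxygen sensing (5) and other hypoxia targets (10).

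Glycolysis splits glucose to pyruvate in the cytosol, and lactate dehydrogenase then turns pyruvate to lactate so that the pathway can run on. The pentose phosphate pathway branches off after the hexokinase step and yields NADPH and ribose. The transcription factor HIF-1, made of HIF-1 alpha (Hif1a) and its partner Arnt, induces many glycolytic genes and a set of other hypoxia targets, and is held down in oxygen by the prolyl hydroxylases Egln1 and Egln3 and by the ubiquitin ligase component Vhl. Macrophages activated by bacterial products are known for high glycolysis and for HIF-1 activity in normal oxygen.

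The study made nanoparticles that respond to reactive oxygen species, for imaging and treating acute lung injury. Its 8 messenger RNA libraries formed 3 groups. Control MH-S cells received phosphate-buffered saline, PBS (n = 3). Another group received LPS, the lipopolysaccharide of the outer membrane of bacteria, which macrophages sense and respond to (n = 2). The last received LPS with nanoparticles named RCMNs (n = 3), at 100 ng/mL LPS and 1 µg/mL RCMNs. The sources used here give no dose for LPS alone and no time of exposure. All groups are 1 immortal cell line, no group received RCMNs without LPS, and nothing states that the replicates came from different cultures. The p-values therefore reflect the spread of these libraries alone, part or all of which may be technical.

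Total counts were 18.64 to 21.22 M (mega) per library, and a gene with no count could lie at up to 0.13 to 0.1817 counts per M of scaled library size (CPM, a floor of 3 counts that covers counting error only). The macrophage genes Lyz2, Cd68, Csf1r and Adgre1 were present in every library, while the alveolar macrophage markers Siglecf, Car4, Chil3 and Ear2 were at 0.2423 CPM or less and Pparg, Ear1 and Marco at 0.5063, 1.227 and 1.316 CPM or less. Other genes of that list were present in every library: Fabp4 at 11.82 to 98.39 CPM, Fabp5 at 129.4 to 502 CPM, Mrc1 at 64.64 to 300.8 CPM and Itgax at 6.242 to 25.71 CPM. The inflammatory cytokine gene Il1b, a check on the LPS labels, was at 0.04335 to 0.2328 CPM in control, 354.5 and 349 CPM in LPS and 6.379 to 7.402 CPM in LPS+RCMNs. Distances within groups were largest for control replicate 1 and for replicate 2 of LPS+RCMNs, with a median absolute log2 difference from their group mates of 0.238 and 0.235 against 0.12 to 0.16 in the other libraries, and they are the 2 libraries that stood apart in what follows. The LPS libraries differed from all others in a way that followed gene length. Relative to the control mean, the shortest 10% of genes had a median log2 level of 1.24 and 1.25 and the longest 10% of -1.04 and -0.94 in the 2 LPS libraries. In the LPS+RCMNs libraries, whose cells also received LPS, these medians lay between -0.06 and 0.10 and between -0.13 and -0.02. Summed transcripts of the 8 listed erythroid markers, mainly globins, were at 4359 and 5624 CPM in LPS, 1.17 to 20.95 CPM in control and 0.81 to 34.32 CPM in LPS+RCMNs. Summed macrophage markers were at 4352 to 5037 CPM in control, 5434 to 6555 CPM in LPS and 5549 to 6858 CPM in LPS+RCMNs, while single lymphocyte and epithelial markers reached at most 0.3635 and 0.2422 CPM. Summed neutrophil markers were at 5.571 and 5.937 CPM in LPS and at most 0.7088 CPM in the other groups. The part of the erythroid and neutrophil transcripts in the results was not tested.

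In LPS against control, as counted, all 5 lower glycolysis and all 4 pentose phosphate genes were higher, 2 of 4 glucose entry genes and 7 of 10 other hypoxia targets were lower, and upper glycolysis was divided (4 of 9 higher and 2 lower). With a surface on gene length and level removed, the 7 hypoxia targets lower were again 7 of 10, while the lower glycolysis genes were no longer called higher and 1 of the 4 pentose phosphate genes was. By edgeR's quasi-likelihood test at an adjusted p under 0.05, 16 of the 42 genes were higher, 15 were lower and 11 were not called. Of all genes tested 63.4% were called, 31.4% higher and 32.1% lower, so the members' shares of 73.8%, 38.1% and 35.7% lay near the background. Their median log2 fold change was 0.15, against -0.04 over all genes. With LPS+RCMNs set against LPS, 10 genes were higher, 17 lower and 15 not called (64.3% called), with a median of -0.15 against 0.04 over all genes, where 59.3% were called, 29.8% higher and 29.5% lower. With LPS+RCMNs set against control, 5 were higher, 5 lower and 32 not called (23.8% called), with a median of -0.04 against -0.02 over all genes, where 7.56% were called, 4.33% higher and 3.23% lower. The 3 comparisons share libraries, LPS or LPS+RCMNs against control the controls, and LPS against control and LPS+RCMNs against LPS the LPS libraries, so their values are not independent of each other.

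**Figure D1:**
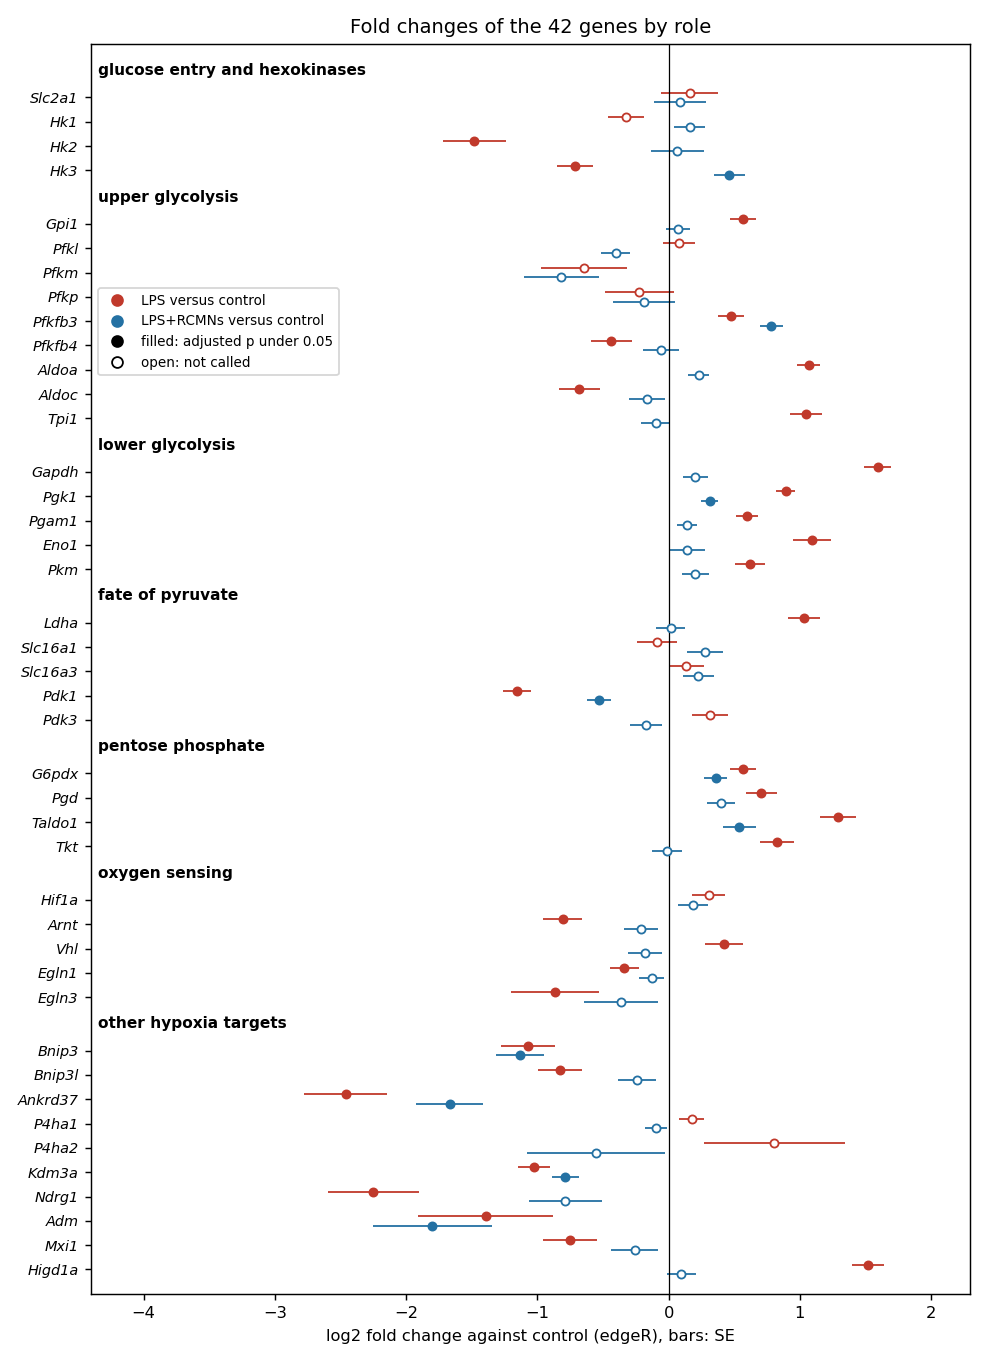
Log2 fold changes of the 42 genes against control (horizontal axis, edgeR, bars are standard errors), grouped by role, for LPS (red) and LPS+RCMNs (blue); filled points have an adjusted p under 0.05. In LPS all 5 lower glycolysis and all 4 pentose phosphate genes lie to the right of 0, while 7 of the 10 other hypoxia targets are called lower. Most LPS+RCMNs points lie near 0, and the 10 called include Adm at -1.80, Ankrd37 at -1.67, Bnip3 at -1.13 and Pfkfb3 at 0.78.

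The LPS split changed less with gene length alone removed than with length and mean level removed together. A fit that removed each library's smooth trend on gene length gave 18 higher and 11 lower genes in LPS against control, and a fit that removed a surface on length and mean level gave 6 higher and 13 lower. For LPS+RCMNs against LPS these fits gave 6 higher and 13 lower, and 10 higher and 6 lower. In LPS against control the trend and surface fits called 45.1% and 43% of all genes tested, against 69.0% and 45.2% of the members. In LPS+RCMNs against LPS they called 40.2% and 38.8% of all genes, against 45.2% and 38.1% of the members. On FPKM (fragments per kb of transcript and M reads), which the TMM scaling does not touch, the median of all genes moved to -0.33 in LPS against control and to 0.27 in LPS+RCMNs against LPS. The members then split into 9 higher and 21 lower, and 18 higher and 7 lower (limma on log2(FPKM + 1)). Of all 11911 genes tested, the same fit called 2113 higher and 5925 lower in LPS against control. It called 5448 higher and 2117 lower in LPS+RCMNs against LPS, so the members' split lay near that of all genes. Signs that differed from the counts on that scale were those of Pfkl, Pfkfb3, Slc16a3, Vhl and P4ha1 in LPS against control (-0.41, -0.05, -0.34, -0.05 and -0.31) and of G6pdx, Pgd, Hif1a and P4ha1 in LPS+RCMNs against LPS (0.21, 0.11, 0.29 and 0.15), counting genes called in at least 1 of the fits, and that of Hif1a in LPS against control (-0.17). Across the members the rank correlation of the fold change with transcript length was -0.43 in LPS against control, 0.56 in LPS+RCMNs against LPS and -0.03 in LPS+RCMNs against control (Spearman, 42 genes of the same libraries, a description only). Over all 11911 tested genes it was -0.58, 0.59 and -0.09. Of the 31 calls in LPS against control, 15 were also made in the same direction with the trend removed, with the surface removed and without the 2 libraries that stood apart. These 15 were Pfkfb3, Tkt, Vhl and Higd1a upward and Hk2, Hk3, Aldoc, Pdk1, Bnip3, Bnip3l, Ankrd37, Kdm3a, Ndrg1, Adm and Mxi1 downward. With the trend removed alone 15 of the 16 higher and 11 of the 15 lower calls were made, and with the surface removed 4 and 11. Of the 27 calls in LPS+RCMNs against LPS, 10 were made in all 3 of these fits: Hk2, Hk3, Aldoc, Ankrd37 and Ndrg1 upward and Pfkl, Tkt, Vhl, P4ha1 and Higd1a downward. With the trend removed alone 5 of its 10 higher and 12 of its 17 lower calls were made, and with the surface removed 6 and 5.

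**Figure D2:**
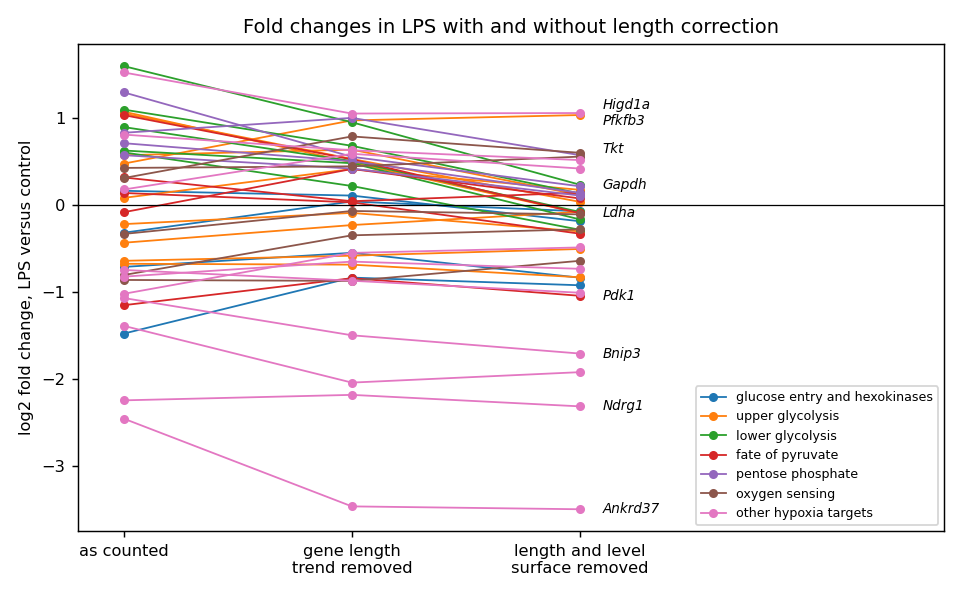
Log2 fold change of each of the 42 genes in LPS against control (vertical axis) as counted, with a smooth trend on gene length removed, and with a surface on length and mean level removed; each line is 1 gene, coloured by role. Gapdh moves from 1.59 to 0.23 and Ldha from 1.03 to -0.10, while Ankrd37 moves from -2.46 to -3.50 and Ndrg1 from -2.25 to -2.32.

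Of the glucose entry genes, 2 of 4 fell in LPS against control, both hexokinases, and 3 were higher in LPS+RCMNs than in LPS. Of all genes tested 32.1% were lower in the first comparison and 29.8% higher in the second. Slc2a1, the main glucose transporter GLUT1 (chromosome 4, 119108745 to 119137330, GRCm38.p6), was at 172.2, 301.3 and 279.9 CPM in control, 305.9 and 255.1 CPM in LPS and 296.7, 228.6 and 274.8 CPM in LPS+RCMNs. The groups overlapped, with control replicate 1 the lowest of all libraries, and no comparison was called (0.16 ± 0.22 SE in LPS against control, adjusted p = 0.547). Hk2, the hexokinase inducible by insulin and by hypoxia (chromosome 6, 82725025 to 82774454), was at 160.2, 295.6 and 261.7 CPM in control, 79.44 and 91.84 CPM in LPS and 269.9, 214.4 and 267 CPM in LPS+RCMNs. Both LPS libraries lay below every other library, while LPS+RCMNs lay within the control range. Hk2 fell by 1.48 ± 0.24 (SE, log2) in LPS against control (adjusted p = 0.000551) and was higher by 1.55 ± 0.24 in LPS+RCMNs than in LPS (adjusted p = 0.000485). Its value in LPS was -0.93 with the length and level surface removed (adjusted p = 0.00718).

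Hk3, the hexokinase of myeloid cells (chromosome 13, 55005985 to 55021475, overlapping Unc5a), was at 303.7, 300.1 and 284.7 CPM in control, 191.5 and 169.5 CPM in LPS and 452, 334.9 and 438 CPM in LPS+RCMNs. No groups overlapped, LPS being lowest and LPS+RCMNs highest. The log2 fold change was -0.72 ± 0.14 (SE) in LPS against control (adjusted p = 0.00144), 1.18 ± 0.14 in LPS+RCMNs against LPS (adjusted p = 9.16e-05) and 0.46 ± 0.12 in LPS+RCMNs against control (adjusted p = 0.0488). The last call was lost when any 1 library other than LPS+RCMNs replicate 2 was left out, and without that library its adjusted p was 0.00367, while without LPS+RCMNs replicate 1 it was 0.184. Hk1, the housekeeping hexokinase, had a value of -0.32 ± 0.14 in LPS against control that was not called (adjusted p = 0.063) and was higher by 0.48 ± 0.14 in LPS+RCMNs than in LPS (adjusted p = 0.013), a call lost without LPS replicate 2 (0.28, adjusted p = 0.173) and after either length correction. Per length, the share of Hk2 in the summed FPKM of the 3 hexokinases was 18.9%, 31.1% and 29.5% in control, 14.8% and 19.1% in LPS and 22.2%, 22.5% and 22.6% in LPS+RCMNs. Control replicate 1 lay within the LPS range, so this share did not separate the groups. Hk3 held the largest share in every library, from 53.6% to 63.1%.

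In upper glycolysis, which takes glucose 6-phosphate to triose phosphates, 4 of 9 genes rose in LPS, 2 fell and 3 were not called. Of all genes tested 31.4% were higher and 32.1% lower in that comparison. Aldoa, the main aldolase here (chromosome 7, 126795234 to 126800994), was at 1390, 1367 and 1391 CPM in control, 3113 and 2686 CPM in LPS and 1690, 1552 and 1620 CPM in LPS+RCMNs. The 3 groups did not overlap and LPS was highest. Aldoa was higher by 1.07 ± 0.09 (SE, log2) in LPS than in control (adjusted p = 9.99e-06), lower by 0.84 ± 0.09 in LPS+RCMNs than in LPS and not called in LPS+RCMNs against control (0.23 ± 0.08, adjusted p = 0.123). Tpi1, triose phosphate isomerase (chromosome 6, 124810586 to 124814158, overlapping Spsb2), was at 786.1, 696.3 and 680.5 CPM in control, 1658 and 1324 CPM in LPS and 638.2, 733.2 and 649.9 CPM in LPS+RCMNs. Only the LPS libraries stood apart for it, with a log2 fold change of 1.05 ± 0.12 against control (adjusted p = 6.51e-05) and of -1.15 ± 0.12 in LPS+RCMNs against LPS (adjusted p = 4.7e-05). Gpi1, glucose phosphate isomerase, rose by 0.57 ± 0.10 in LPS against control and was lower by 0.50 ± 0.10 in LPS+RCMNs than in LPS. These 3 rises were not called once the surface on length and level was removed, where the values were -0.10 for Aldoa, 0.03 for Tpi1 and 0.11 for Gpi1. That fit gave 0.18, -0.27 and -0.21 in LPS+RCMNs against LPS, also not called.

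Pfkfb3 makes fructose 2,6-bisphosphate, the strongest activator of phosphofructokinase (chromosome 2, 11471430 to 11554071). It was at 31.34, 30.68 and 34.56 CPM in control, 46.75 and 42.59 CPM in LPS and 56.37, 53.36 and 56.33 CPM in LPS+RCMNs. The groups did not overlap, and both LPS-treated groups were above control with LPS+RCMNs highest. Pfkfb3 was higher than control by 0.47 ± 0.10 (SE, log2) in LPS (adjusted p = 0.00247) and by 0.78 ± 0.09 in LPS+RCMNs (adjusted p = 0.00151), the largest rise among the members in the latter comparison. In LPS the rise was 1.03 with the surface on length and level removed (adjusted p = 8.16e-05), and on FPKM it was -0.05 while the median of all genes was -0.33. The difference of 0.31 ± 0.10 between LPS+RCMNs and LPS (adjusted p = 0.0236) was -0.16 and -0.22 after the length corrections and was not called there, and it was not called without control replicate 2, LPS replicate 2, LPS+RCMNs replicate 1 or LPS+RCMNs replicate 3 (adjusted p of 0.0514 to 0.195). Pfkfb4, the other enzyme of this kind, had a log2 fold change of -0.44 ± 0.16 in LPS against control (adjusted p = 0.0329), a call that was lost in 6 of the 8 fits that left out 1 library. The call was also lost with the trend and the surface removed (-0.23 and -0.08, adjusted p = 0.268 and 0.675). Without the 2 libraries that stood apart its adjusted p was 0.0559. The share of Pfkfb3 in the summed FPKM of the pair was 54% to 62.9% in control, 71.4% and 74.4% in LPS and 70.4% to 72.4% in LPS+RCMNs, so that control did not overlap with the other groups.

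Of the phosphofructokinases, which commit glucose to glycolysis, Pfkl, Pfkm and Pfkp were not called in LPS against control (0.08 ± 0.12, -0.65 ± 0.33 and -0.22 ± 0.26). Pfkl was lower in LPS+RCMNs than in LPS by 0.48 ± 0.12 (adjusted p = 0.00712), a call lost without LPS replicate 1 (-0.30, adjusted p = 0.0762), and its value of -0.40 ± 0.11 against control missed the threshold (adjusted p = 0.0581). Pfkp was at 276.3 CPM in control replicate 1 against 143.5 and 136.2 CPM in the other controls, and Pfkm at 54.53 CPM against 25.7 and 26.1 CPM. Without that library Pfkp was higher in LPS by 0.24 (adjusted p = 0.0321). Aldoc, the minor aldolase, had a log2 fold change of -0.68 ± 0.16 in LPS against control (adjusted p = 0.00456, or 0.0789 without LPS replicate 2), and was higher in LPS+RCMNs than in LPS by 0.52 ± 0.16 (adjusted p = 0.0188, or 0.201 without LPS replicate 2). Its share of the summed aldolase FPKM was 3.9% to 4.46% in control, 1.21% and 1.31% in LPS and 2.7% to 3.46% in LPS+RCMNs, with no overlap.

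All 5 genes of lower glycolysis, the ATP-yielding end of the pathway, rose in LPS against control and all 5 were lower in LPS+RCMNs than in LPS, as counted. Of all genes tested 31.4% were higher in the first comparison and 29.5% lower in the second. With the surface on length and level removed, Pgk1 and Pgam1 were called higher in LPS+RCMNs than in LPS (0.24 and 0.29) and Pkm was at 0.18. Gapdh, glyceraldehyde phosphate dehydrogenase (chromosome 6, 125161852 to 125166467), was at 3875, 3596 and 3591 CPM in control, 12030 and 10220 CPM in LPS and 3943, 4721 and 4086 CPM in LPS+RCMNs. Both LPS libraries were far above the rest, and LPS+RCMNs lay just above control. Gapdh was higher by 1.59 ± 0.11 (SE, log2) in LPS than in control (adjusted p = 3.22e-06) and lower by 1.39 ± 0.11 in LPS+RCMNs than in LPS (adjusted p = 8.22e-06), a difference of -0.20 that was not called with the surface on length and level removed (adjusted p = 0.161). Per length it was the most abundant member, at 2993 ± 202 FPKM in control (SD, n = 3), 6491 ± 594.7 FPKM in LPS (SD, n = 2) and 3294 ± 328.4 FPKM in LPS+RCMNs (SD, n = 3). Eno1, enolase (chromosome 4, 150236708 to 150248879), was at 1181, 1045 and 1023 CPM in control, 2537 and 2082 CPM in LPS and 1033, 1430 and 1120 CPM in LPS+RCMNs. LPS was again above the rest, while control and LPS+RCMNs overlapped, and the rise in LPS was 1.09 ± 0.15 (adjusted p = 0.000179).

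Pkm, pyruvate kinase (chromosome 9, 59656576 to 59679372), was at 3173, 2811 and 2795 CPM in control, 4995 and 4019 CPM in LPS and 3239, 3672 and 3205 CPM in LPS+RCMNs. It rose by 0.62 ± 0.12 in LPS against control (adjusted p = 0.00117) with no overlap between any groups. The LPS+RCMNs fall of 0.42 ± 0.12 against LPS (adjusted p = 0.0114) was not called without LPS replicate 1 (-0.27, adjusted p = 0.118). Pgk1 and Pgam1, which carry the chain between Gapdh and enolase, rose by 0.89 ± 0.07 and 0.60 ± 0.08 in LPS. Pgk1 alone of the 5 was also called in LPS+RCMNs against control (0.31 ± 0.07, adjusted p = 0.0235), at 1549 to 1602 CPM against 1948 to 2001 CPM, but not without control replicate 2 or 3 or LPS+RCMNs replicate 1 or 3 (adjusted p of 0.0751 to 0.0992). Removal of the length trend left 4 of the 5 rises in LPS called, all but Pgam1. Removal of the surface on length and level ended the calls, with Gapdh at 0.23, Eno1 at 0.13, Pgk1 at -0.08 and Pkm at -0.17, and with Pgam1 called lower at -0.29 (adjusted p = 0.0186). These are short, abundant transcripts, of 1359 to 2308 bases against a median of 2824 over all tested genes. Reads of Gapdh, Eno1, Ldha and other members with near-identical pseudogene copies may have been divided in a way that is not stated.

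**Figure D3:**
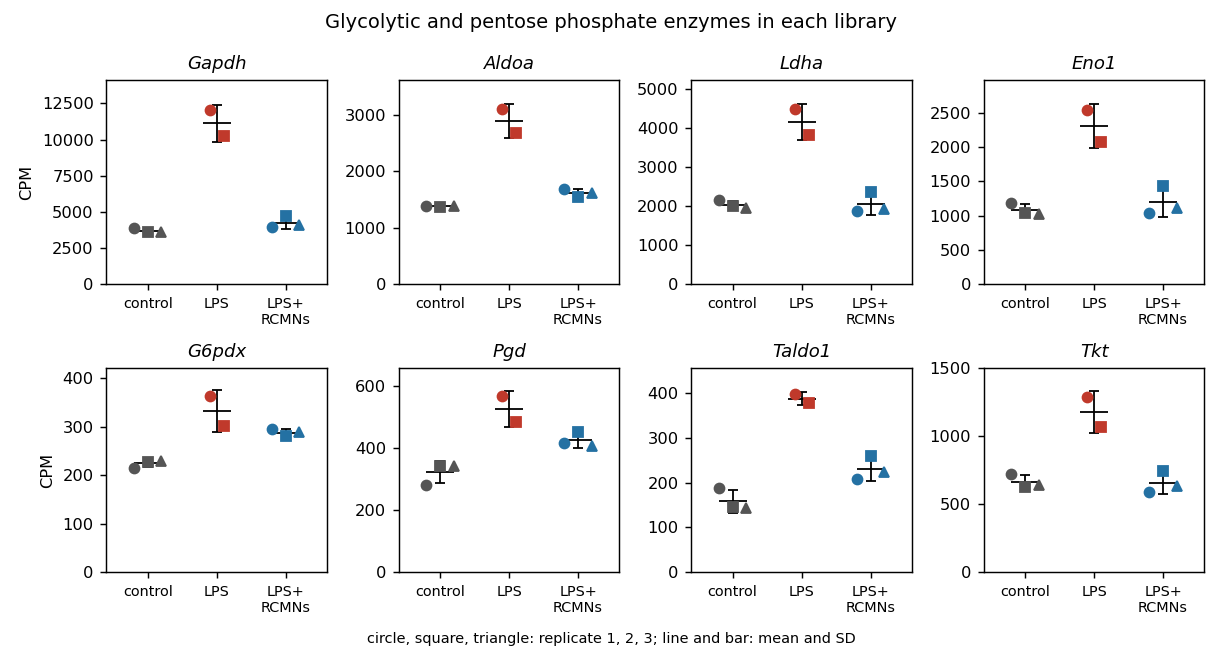
CPM (vertical axes, from 0) of 4 glycolytic genes and the 4 pentose phosphate genes in each library, with group mean and SD. The 2 LPS libraries lie above every control library in all 8 panels, with Gapdh at 12030 and 10220 CPM, and LPS+RCMNs lies wholly above control in Gapdh, Aldoa, G6pdx, Pgd and Taldo1 and overlaps it in Ldha, Eno1 and Tkt.

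At the branch after pyruvate, Ldha and Pdk1 moved in opposite directions in LPS. Ldha, which makes lactate (chromosome 7, 46842274 to 46855627), was at 2145, 1994 and 1961 CPM in control, 4478 and 3824 CPM in LPS and 1875, 2371 and 1918 CPM in LPS+RCMNs. Control and LPS+RCMNs overlapped and LPS stood above both, with a rise of 1.03 ± 0.12 against control (adjusted p = 7.1e-05) that was -0.10 with the surface on length and level removed. Ldha was lower in LPS+RCMNs than in LPS by 1.01 ± 0.12, or -0.05 and not called in that fit. Pdk1, a kinase that shuts pyruvate dehydrogenase (chromosome 2, 71873215 to 71903858), was at 266.8, 252.9 and 249.5 CPM in control, 127.3 and 103.1 CPM in LPS and 178, 171.3 and 183.4 CPM in LPS+RCMNs. The 3 groups did not overlap, with control highest and LPS lowest. Pdk1 fell by 1.16 ± 0.11 (SE, log2) in LPS against control (adjusted p = 2.11e-05) and by 0.53 ± 0.09 in LPS+RCMNs against control (adjusted p = 0.0114). The second call was at an adjusted p of 0.052 and 0.0624 without LPS+RCMNs replicate 1 or 3.

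Pdk1 was higher in LPS+RCMNs than in LPS by 0.63 ± 0.11 (adjusted p = 0.000853), a call lost with the length trend removed (0.33, adjusted p = 0.0501) and made with the surface removed (0.44, adjusted p = 0.00829). Pdk3, a kinase of the same family, was not called in LPS against control (0.31 ± 0.14, adjusted p = 0.072) and was lower in LPS+RCMNs than in LPS by 0.49 ± 0.14 (adjusted p = 0.0132, or 0.107 without LPS replicate 1), a call lost with either length correction (-0.24 and -0.30). Its share of the summed FPKM of the 2 kinases was 10.2% to 10.7% in control, 24.2% and 24.8% in LPS and 11.7% to 14% in LPS+RCMNs. Slc16a3, the lactate exporter MCT4 (chromosome 11, 120948484 to 120959000, overlapping Csnk1d), was at 323.4, 407.7 and 388 CPM in control, 449.1 and 369.8 CPM in LPS and 423.3, 480.7 and 404.7 CPM in LPS+RCMNs. The groups overlapped in every pairing, and no comparison was called as counted (0.14 ± 0.13 in LPS against control, adjusted p = 0.405). With the surface removed Slc16a3 was called lower in LPS against control (-0.33, adjusted p = 0.0321). That fit called it higher in LPS+RCMNs against LPS (0.45, adjusted p = 0.0103), and limma on FPKM made the same calls. Slc16a1, the transporter MCT1, was not called as counted (-0.09 ± 0.15 in LPS against control, adjusted p = 0.644).

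All 4 pentose phosphate genes rose in LPS against control, where 31.4% of all genes tested were higher. G6pdx, the NADPH-yielding first enzyme (chromosome X, 74409483 to 74428880, overlapping Ikbkg), was at 215.2, 227.9 and 230 CPM in control, 363.1 and 302.7 CPM in LPS and 294.9, 280.1 and 288.6 CPM in LPS+RCMNs. Both LPS-treated groups lay above control, and LPS lay above LPS+RCMNs. The log2 fold change was 0.57 ± 0.10 in LPS (adjusted p = 0.000784) and 0.36 ± 0.09 in LPS+RCMNs (adjusted p = 0.0429) against control. Pgd, the second NADPH-yielding enzyme (chromosome 4, 149149991 to 149166705), was at 281.1, 341.9 and 342.8 CPM in control, 567 and 483.8 CPM in LPS and 417.9, 451.2 and 405.9 CPM in LPS+RCMNs. It showed the same order of groups with no overlap, rose by 0.71 ± 0.12 in LPS (adjusted p = 0.000642) and just missed the threshold in LPS+RCMNs (0.40 ± 0.11, adjusted p = 0.0544).

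Taldo1, transaldolase of the non-oxidative branch (chromosome 7, 141392160 to 141402976), was at 187.5, 145.6 and 142.5 CPM in control, 397.9 and 377.7 CPM in LPS and 208.4, 258.7 and 223.5 CPM in LPS+RCMNs. Again the groups did not overlap, with log2 fold changes against control of 1.29 ± 0.14 in LPS (adjusted p = 4.46e-05) and 0.54 ± 0.13 in LPS+RCMNs (adjusted p = 0.0365). Tkt, transketolase (chromosome 14, 30549131 to 30574724), was at 725.6, 624 and 641.7 CPM in control, 1286 and 1069 CPM in LPS and 593.6, 746.3 and 633.8 CPM in LPS+RCMNs. Only LPS was apart, with a rise of 0.83 ± 0.13 (adjusted p = 0.000396). Tkt was lower in LPS+RCMNs than in LPS by 0.84 ± 0.13, Taldo1 by 0.75 ± 0.14 and Pgd by 0.31 ± 0.12 (adjusted p = 0.0493, or 0.266 without LPS replicate 1), and G6pdx was not called (-0.21 ± 0.10). With the surface on length and level removed Tkt was still lower (-0.73), while Taldo1 and Pgd were at 0.23 and 0.16 and not called. All 4 rises in LPS stayed called with the length trend removed, and Tkt was the one still called with the surface on length and level removed (0.57, adjusted p = 0.00936, against 0.11 for G6pdx, 0.14 for Pgd and 0.21 for Taldo1). The LPS+RCMNs calls of G6pdx and Taldo1 were each lost in 5 and 7 of the 8 fits that left out 1 library, with adjusted p up to 0.157 without LPS+RCMNs replicate 1 and 0.123 without control replicate 3. Both calls were also lost with the trend and the surface removed (adjusted p = 0.0578 and 0.0664 for G6pdx, 0.0551 and 0.0581 for Taldo1).

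Among the oxygen sensing genes, Hif1a itself (chromosome 12, 73901324 to 73947554) was at 152.5, 203.9 and 191.7 CPM in control, 239.5 and 212.7 CPM in LPS and 203.9, 206.4 and 213.9 CPM in LPS+RCMNs. LPS lay above control without overlap, yet the difference of 0.31 ± 0.13 was not called (adjusted p = 0.0577). It was called in 6 of the 8 fits that left out 1 library (for example without control replicate 2, 0.44, adjusted p = 0.0204) and with either length correction (0.79 and 0.60). On FPKM it was -0.17, not called. In LPS+RCMNs against LPS Hif1a was not called as counted (-0.12 ± 0.13, adjusted p = 0.439). It was called lower there with the trend and the surface removed (-0.57 and -0.48, adjusted p = 0.00671 and 0.00614). On FPKM it was called higher (up to 0.295). Egln3, a prolyl hydroxylase that is itself a HIF target (chromosome 12, 54178981 to 54203874), was at 6.979, 8.752 and 6.456 CPM in control, 4.844 and 3.271 CPM in LPS and 5.053, 8.303 and 3.941 CPM in LPS+RCMNs. LPS lay below control, and LPS+RCMNs overlapped both. The log2 fold change of -0.87 ± 0.33 in LPS against control (adjusted p = 0.0448) was called by a narrow margin, and the call was lost without any 1 of 6 libraries (adjusted p up to 0.306 without LPS replicate 2). Arnt had a log2 fold change of -0.81 ± 0.15 in LPS against control (adjusted p = 0.00111), which was -0.28 and not called with the surface on length and level removed. Egln1 was lower by 0.34 ± 0.11 (adjusted p = 0.0227, or 0.15 without LPS replicate 2) and Vhl higher by 0.42 ± 0.14 (adjusted p = 0.0276, or 0.12 without LPS replicate 1), with Vhl at -0.05 on FPKM. With the trend and the surface removed Egln1 was at -0.07 and -0.11 (adjusted p = 0.609 and 0.404). Egln3 was at -0.876 and -0.645 in these fits (adjusted p = 0.0612 and 0.179), so neither gene was called there. Vhl was called higher in both fits (0.44 and 0.55). Arnt was higher in LPS+RCMNs than in LPS by 0.60 ± 0.15 (adjusted p = 0.00638, or 0.0906 without LPS replicate 2), but by 0.17 and 0.11 with the trend and the surface removed (adjusted p = 0.444 and 0.589), and Vhl was lower by 0.60 ± 0.14 (adjusted p = 0.00561). Against control, the 5 genes were not called in LPS+RCMNs (unadjusted p of 0.133 to 0.231), with values of 0.19, -0.21, -0.18, -0.13 and -0.36 for Hif1a, Arnt, Vhl, Egln1 and Egln3, although Egln3 was called lower without the 2 libraries that stood apart (-0.73, adjusted p = 0.0343).

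The other hypoxia targets were the role with the most falls: 7 of 10 fell in LPS against control, 1 rose and 2 were not called, and 4 of 10 fell in LPS+RCMNs against control. Of all genes tested 32.1% were lower in the first comparison and 3.23% in the second. The 4 were Ankrd37, Bnip3, Kdm3a and Adm, and with Pdk1 they were the 5 members lower in LPS+RCMNs than in control. All 5 calls were also made with the length trend removed, with the surface on length and level removed and without the 2 libraries that stood apart. The stretch of 250 bases before a RefSeq transcription start of each (GRCm38.p6) is shown because these are the members that stayed below control with RCMNs. Capitals mark ACGTG and GCGTG, the 2 forms of the core of the hypoxia response element, on the strand printed, and CACGT and CACGC, the same on the other strand. The palindrome CACGTG, the E-box of other factors, holds ACGTG and counts as a match. Coordinates are chr8:45999851-46000100 on the minus strand for Ankrd37, chr7:138909507-138909756 (minus) for Bnip3, chr6:71632918-71633167 (minus) for Kdm3a, chr2:71872974-71873223 (plus) for Pdk1 and chr7:110627407-110627656 (plus) for Adm, each printed 5′ to 3′ on the strand of the gene.
Ankrd37: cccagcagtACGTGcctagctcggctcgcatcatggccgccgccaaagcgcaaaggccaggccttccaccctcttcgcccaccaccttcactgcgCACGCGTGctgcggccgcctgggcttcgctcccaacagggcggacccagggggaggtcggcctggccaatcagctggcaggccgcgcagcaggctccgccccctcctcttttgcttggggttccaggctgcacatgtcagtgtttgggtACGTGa
Bnip3: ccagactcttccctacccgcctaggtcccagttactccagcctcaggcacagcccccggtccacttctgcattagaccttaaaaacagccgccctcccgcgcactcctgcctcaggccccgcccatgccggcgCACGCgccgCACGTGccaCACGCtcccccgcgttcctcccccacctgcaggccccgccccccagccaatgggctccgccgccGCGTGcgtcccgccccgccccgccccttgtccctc
Kdm3a: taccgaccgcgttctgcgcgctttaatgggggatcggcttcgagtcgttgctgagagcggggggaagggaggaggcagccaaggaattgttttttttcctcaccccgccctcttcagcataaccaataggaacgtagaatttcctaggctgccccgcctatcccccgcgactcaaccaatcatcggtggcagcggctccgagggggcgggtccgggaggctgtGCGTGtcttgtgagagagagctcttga
Pdk1: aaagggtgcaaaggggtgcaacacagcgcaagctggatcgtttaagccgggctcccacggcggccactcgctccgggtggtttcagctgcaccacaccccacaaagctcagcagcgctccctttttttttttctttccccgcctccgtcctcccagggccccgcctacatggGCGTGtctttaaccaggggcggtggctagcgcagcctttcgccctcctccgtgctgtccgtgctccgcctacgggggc
Adm: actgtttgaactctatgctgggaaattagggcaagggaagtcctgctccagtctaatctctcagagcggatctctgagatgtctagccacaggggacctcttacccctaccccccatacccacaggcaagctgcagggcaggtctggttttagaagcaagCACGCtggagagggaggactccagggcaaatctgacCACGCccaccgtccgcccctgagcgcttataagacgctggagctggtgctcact

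Each of the 5 stretches printed held at least 1 match. They were chosen among the windows of a gene for holding one: Pdk1 has a second RefSeq window and Kdm3a 2 more, and these 3 held no match. The window of Pdk1 has 1 further match that runs across the start and is not marked. In windows from 250 bases before to 50 after a start, 46 of 58 member windows (79.3%) and 14380 of all 32851 windows (43.8%) held one, and CACGTG was in 7.15% of all windows. By gene, 37 of the 40 members with a window had a match in at least 1 of them (92.5%), as did 67.1% of the 9520 tested genes with a window. All 4 pentose phosphate and all 5 lower glycolysis genes, which rose in LPS, held a match too. A match of 5 bases is a description of these letters and not a binding site. Ndrg1 and Bnip3l had no entry.

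Ankrd37, a small ankyrin repeat protein long used as a HIF-1 target (chromosome 8, 45996908 to 46000414, overlapping Ufsp2), was at 43.17, 76.44 and 73.99 CPM in control, 11.26 and 12.18 CPM in LPS and 24.83, 13.82 and 22.2 CPM in LPS+RCMNs. The 3 groups did not overlap, LPS being lowest. The log2 fold change against control was -2.46 ± 0.32 (SE) in LPS (adjusted p = 0.000128) and -1.67 ± 0.26 in LPS+RCMNs (adjusted p = 0.00587). At 941 bases it is the shortest member, and in LPS short genes as a whole were higher; its value was -3.50 with the surface on length and level removed. LPS+RCMNs was above LPS by 0.79 ± 0.30 (adjusted p = 0.0473), a call lost in 6 of the 8 fits without 1 library (adjusted p up to 0.197 without LPS replicate 1).

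Bnip3, a mitophagy receptor (chromosome 7, 138890836 to 138909506), was at 212.4, 163.5 and 140.9 CPM in control, 83.2 and 80.58 CPM in LPS and 93.12, 60.95 and 81.75 CPM in LPS+RCMNs. Every LPS-treated library lay below every control, and the 2 LPS-treated groups overlapped. Bnip3 fell by 1.07 ± 0.21 in LPS (adjusted p = 0.00152) and fell by 1.13 ± 0.18 in LPS+RCMNs (adjusted p = 0.00707), and the difference between these groups was -0.06 ± 0.20 (adjusted p = 0.816). Kdm3a, a histone demethylase that needs oxygen (chromosome 6, 71588970 to 71632990), was at 56.22, 64.66 and 59.41 CPM in control, 29.25 and 29.87 CPM in LPS and 38.27, 30.98 and 35.13 CPM in LPS+RCMNs. Its groups did not overlap, and it fell by 1.02 ± 0.12 in LPS (adjusted p = 7.31e-05) and fell by 0.79 ± 0.10 in LPS+RCMNs (adjusted p = 0.00289). Adm, the vasodilator peptide adrenomedullin (chromosome 7, 110627657 to 110629820), was at 1.994, 6.518 and 5.388 CPM in control, 1.877 and 1.636 CPM in LPS and 1.472, 0.7594 and 1.73 CPM in LPS+RCMNs. Control replicate 1 was close to the treated libraries, and the counts behind these values were 15 to 140 per library. The log2 fold change was -1.39 ± 0.51 in LPS (adjusted p = 0.0383) and -1.80 ± 0.45 in LPS+RCMNs (adjusted p = 0.0445), and these calls were lost in most fits that left out 1 library (adjusted p up to 0.183 without LPS replicate 2 and 0.134 without control replicate 2), while without control replicate 1 both were made.

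**Figure D4:**
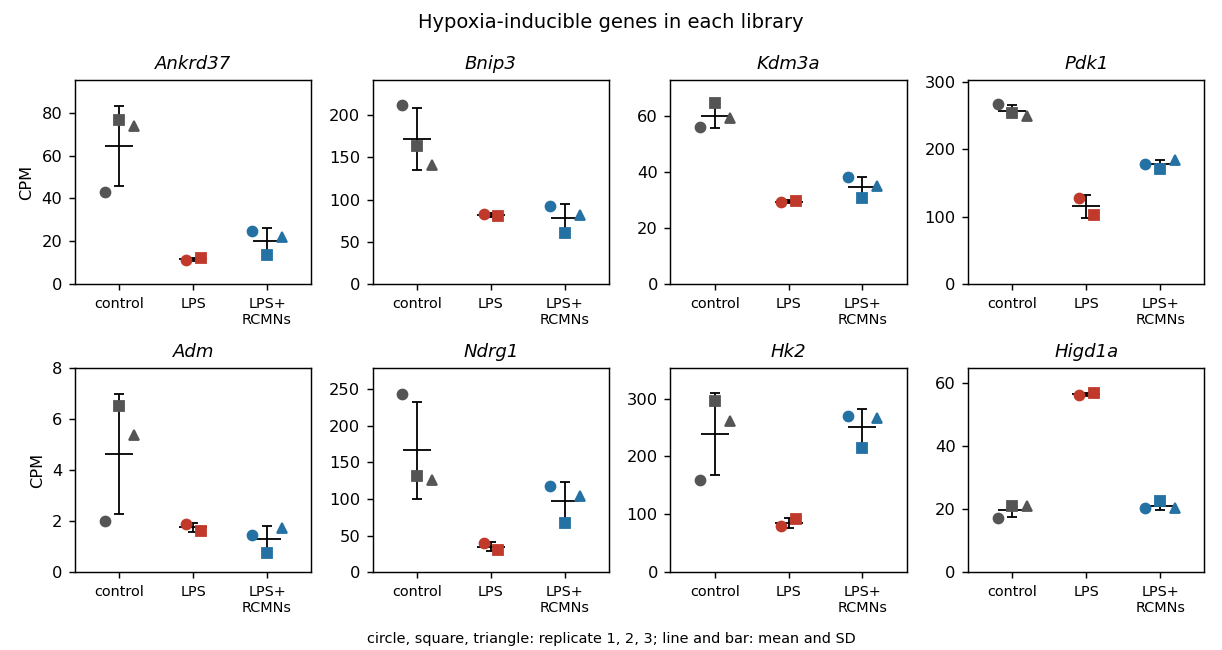
CPM (vertical axes, from 0) of 8 hypoxia-inducible genes in each library, with group mean and SD. Ankrd37, Bnip3, Kdm3a and Pdk1 lie below control in both LPS-treated groups, Ndrg1 and Hk2 are lowest in LPS, and Higd1a is high in LPS alone, at 56.01 and 56.71 CPM.

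Ndrg1, a stress-responsive cytosolic protein (chromosome 15, 66929318 to 66969641), was at 243.4, 131.5 and 126 CPM in control, 39.3 and 30.96 CPM in LPS and 118.2, 67.43 and 104.8 CPM in LPS+RCMNs. LPS was below every other library, and LPS+RCMNs lay below control with control replicate 1 far above its mates. The log2 fold change in LPS was -2.25 ± 0.34 (adjusted p = 0.000378), and the value in LPS+RCMNs against control was -0.79 ± 0.28 (adjusted p = 0.131), or -0.18 without the 2 libraries that stood apart. LPS+RCMNs was above LPS by 1.46 ± 0.33 (adjusted p = 0.00428, or 0.0576 without LPS replicate 2). Bnip3l, the second mitophagy receptor, and Mxi1, an antagonist of Myc, fell in LPS by 0.83 ± 0.17 and 0.75 ± 0.21, the latter with an adjusted p of 0.0105 that was 0.0664 and 0.0983 without LPS replicate 1 or 2. P4ha1 and P4ha2, subunits of collagen prolyl hydroxylase, were not called in LPS against control as counted (0.18 ± 0.09 and 0.81 ± 0.54), and P4ha2 had only 4 to 23 counts per library. P4ha1 was called higher there with the trend and the surface removed (0.585 and 0.416), and lower on FPKM (-0.31). Bnip3l was higher in LPS+RCMNs than in LPS by 0.59 ± 0.17 (adjusted p = 0.013, or 0.124 without LPS replicate 2, and 0.0642 and 0.0508 with the length corrections). In that comparison P4ha1 was lower by 0.27 ± 0.09 (adjusted p = 0.0327, or 0.157 without LPS replicate 1). Mxi1 was not called there as counted (0.49 ± 0.21, adjusted p = 0.0645). With the trend and the surface removed Mxi1 was called higher (0.61 and 0.70, adjusted p = 0.0474 and 0.0233).

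Higd1a, a mitochondrial inner membrane protein (chromosome 9, 121848557 to 121857796), was the 1 gene of this role that rose. It was at 17.03, 20.95 and 21 CPM in control, 56.01 and 56.71 CPM in LPS and 20.26, 22.53 and 20.33 CPM in LPS+RCMNs. Control and LPS+RCMNs overlapped, and both LPS libraries were well above them. Higd1a was higher by 1.52 ± 0.12 in LPS than in control (adjusted p = 8.32e-06) and lower by 1.42 ± 0.12 in LPS+RCMNs than in LPS (adjusted p = 1.52e-05), and its rise was 1.05 with the surface on length and level removed (adjusted p = 0.000246).

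As a share of each library's total count, the 10 other hypoxia targets took 0.109%, 0.0899% and 0.0851% in control, 0.0418% and 0.04% in LPS and 0.0651%, 0.0555% and 0.0618% in LPS+RCMNs, with no overlap between groups. The 5 lower glycolysis genes took 1.21%, 1.09% and 1.08%, then 1.86% and 1.64%, then 1.17%, 1.36% and 1.19%. All 42 members together took 2.22% to 2.44% in control, 2.81% and 3.19% in LPS and 2.31% to 2.56% in LPS+RCMNs. In bulk RNA, fewer cells that express a gene and less RNA per cell cannot be told apart.

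Genes next to these pathways were read from lists of their known members. Of all 11911 genes tested, 31.4% were higher and 32.1% lower in LPS against control, and 29.8% and 29.5% in LPS+RCMNs against LPS. In LPS against control 2734 were higher and 2643 lower with the length trend removed, and 2461 and 2656 with the surface removed. The surface fit gave 2296 higher and 2329 lower in LPS+RCMNs against LPS. Of 25 genes of the tricarboxylic acid cycle and its links, 19 rose and 2 fell in LPS against control, and 3 were higher and 17 lower in LPS+RCMNs than in LPS. In LPS, removal of the length trend left 11 higher and 1 lower, and removal of the surface on length and level 5 higher and 5 lower. The latter left 3 higher and 7 lower in LPS+RCMNs against LPS. The largest change was in Acod1, which makes the antimicrobial metabolite itaconate, with 5.42 ± 0.25 in LPS and 3.65 ± 0.22 in LPS+RCMNs against control. Of 10 genes of pyruvate dehydrogenase and its control 7 rose and 3 fell in LPS, with 4 and 2 after removal of the length trend, and after removal of the surface 2 rose and the other 8 were not called. Mpc1 and Mpc2, the mitochondrial pyruvate carrier, went from 1.14 and 1.32 to 0.11 and 0.08 with the length trend removed. Of 11 genes of glycogen metabolism 7 fell in LPS and 4 were not called, with 3 falls after either length correction. Ppp1r3b, a glycogen-targeting phosphatase subunit, had a log2 fold change of -1.85, and Phkb, a phosphorylase kinase subunit, of -1.10.

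Of 40 hypoxia targets outside the 42 genes, 11 rose and 17 fell in LPS against control, where 31.4% of all genes tested were higher and 32.1% lower, with 7 and 13 after removal of the length trend and 5 and 11 after removal of the surface. In LPS+RCMNs against control 4 rose and 8 fell, with 4 and 6 and with 4 and 8 after these corrections, where 4.33% of all genes were higher and 3.23% lower. Zfp395, a zinc finger gene, had a mean of 33.18 CPM in control, 2.211 CPM in LPS and 15.67 CPM in LPS+RCMNs, log2 fold changes against control of -3.90 (adjusted p = 9.89e-07) and -1.08 (adjusted p = 0.00227). Mif, a cytokine, and Fam162a rose by 1.74 and 1.11 in LPS but were at 0.13 and -0.31 with the length trend removed. Of 14 oxygen sensors and HIF partners, 7 rose and 4 fell in LPS (4 and 3, then 5 and 2, after the corrections), among them Elob and Rbx1, parts of the ligase that Vhl belongs to, at 2.06 and 1.29, and the coactivator Ep300 at -1.29. Elob was at 0.29 and not called once the length trend was removed. Arnt2, a relative of Arnt, was the 1 gene of that list called in LPS+RCMNs against control, with a log2 fold change of 2.996 (adjusted p = 0.000726) from a mean of 1.082 to 8.643 CPM. Of 9 further pentose phosphate genes 5 rose and 2 fell in LPS, while 2 rose with the length trend removed and 1 with the surface removed, the others not being called. Of 26 further glycolytic isoforms and regulators 8 rose and 9 fell (9 and 10, then 9 and 11, after the corrections), with Bsg, a chaperone of lactate transporters, at 1.27 and Pfkfb2, a kinase like Pfkfb3, at -1.56.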

How the data were processed

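RNA was extracted with TRIzol, selected on oligo(dT) and made into libraries with a BGI kit, per the labels' protocols. The series' design text names FastQC for read quality, and mm10 is the build in the submitters' processing notes. The sources used here give no aligner, counter or annotation. Per the file headers the authors made 2 values for each gene and library before depositing them, an estimated count of reads and an FPKM. Fractions are frequent among the counts (77.8% of those above 0 differ from a whole number by over 0.001), so they were rounded. A set of 4 per-sample columns that matched no sample was not used.

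After filterByExpr and TMM scaling, tests were run in edgeR 4.0.16 (quasi-likelihood, R 4.3.3) over all 8 libraries in 3 groups, with Benjamini-Hochberg adjustment over 11911 genes and a threshold of 0.05. The common biological coefficient of variation was 14.5%. Standard errors are the absolute log2 fold change divided by the square root of F. Length is that implied by counts and FPKM. The length corrections are loess fits (span 0.4) used as offsets, on length alone (the trend) or on length and mean level over the 8 libraries (the surface). The scripts were tested on simulated data. Alternatives were the groups compared alone, a replicate block, leaving out libraries, a minimum log2 fold change of 1, no filter, FPKM of at least 5 in 2 libraries, median-ratio scaling, DESeq2 1.42.0, limma 3.58.1 on log2 FPKM with pseudocounts 1 and 0.1, and the length corrections. Figures used pandas 2.3.3 and matplotlib 3.10.9. Promoters are RefSeq, GRCm38.p6, as are gene positions. The members and all lists were chosen with earlier results of these data known. Values per library were given for the members with the largest called changes (4 in each direction against control in LPS and in LPS+RCMNs against LPS, 3 in LPS+RCMNs against control) and for 14 genes of fixed interest.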

Additional observations from a re-analysis of the deposited data

How the results depend on the processing

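Counts of the 42 genes called are given as called, higher and lower. The share of all genes called moved with the setting too. In LPS against control it was 63.4% in the main fit, 30.4% with the fold minimum and 43% with the surface removed. In LPS+RCMNs against LPS these shares were 59.3%, 26.5% and 38.8%, and in LPS+RCMNs against control 7.56%, 2.64% and 8.03%. In LPS against control, leaving out 1 library gave 26 to 33 called, 15 to 19 higher and 9 to 14 lower. A minimum log2 fold change of 1 left 14, 7 and 7. limma on FPKM gave 9 higher with either pseudocount, and the surface on length and level gave 19 called and 6 higher. In LPS+RCMNs against LPS, leaving out 1 library gave 21 to 29 called, 3 to 12 higher (3 without LPS replicate 2 and 6 without LPS+RCMNs replicate 3) and 12 to 18 lower. The fold minimum left 7, 3 and 4. limma gave 18 higher and 7 lower (19 and 7 with the pseudocount 0.1), the length trend 6 higher, and the surface 16 called and 6 lower. In LPS+RCMNs against control, leaving out 1 library gave 4 to 9 called, 1 to 4 higher and 3 to 5 lower, and leaving out both libraries that stood apart gave 18, 9 and 9. Without both of those libraries 25.5% of all genes tested were called, against 7.56% in the main fit. The fold minimum left 3 called, all lower and 0 higher. Only the groups compared gave 3 higher, no filter 3 higher, DESeq2 8 lower, limma 2 higher (6 called and 1 higher with 0.1), the length trend 3 higher and the surface 1 higher.

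Replicate numbers did not pair the libraries, with correlations of deviations between same-numbered libraries from -0.315 to 0.175. With the replicate block 28, 23 and 5 genes were called in the 3 comparisons, 1 of the last 5 higher. Of all genes tested 56.9%, 51.9% and 3.81% were called in that fit.

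Signs that turned in LPS against control were Pfkp (-0.36 to 0.24 over fits that left out 1 library, the positive value without control replicate 1, and 0.24 without both libraries that stood apart), and with limma (pseudocounts 1 and 0.1) Pfkl (-0.41 and -0.42), Pfkfb3 (-0.045 and -0.05), Slc16a3 (-0.34 and -0.35), Vhl (-0.05 and -0.055) and P4ha1 (-0.31 and -0.31). With the surface removed they were Aldoa (-0.10), Pgk1 (-0.083), Pgam1 (-0.29), Pkm (-0.17), Ldha (-0.10) and Slc16a3 (-0.33). In LPS+RCMNs against LPS, limma turned G6pdx (0.21 and 0.21), Pgd (0.11 and 0.12), Hif1a (0.29 and 0.30) and P4ha1 (0.15 and 0.15), the length trend turned Pfkfb3 (-0.16), and the surface turned Pfkfb3 (-0.22), Aldoa (0.18), Pgk1 (0.24), Pgam1 (0.29), Pkm (0.18), Pgd (0.16) and Taldo1 (0.23). In LPS+RCMNs against control, Pfkp turned to 0.25 without both libraries that stood apart. The cause was not tested. The stricter filter left 39 of the 42 genes tested. Depth limits Adm and P4ha2, which had few counts.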
